A study of Mus musculus with 24 samples.

Results

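The genes described here are the coat proteins and the fat-cleaving enzymes of lipid droplets, with the small proteins that switch those enzymes on or off: Plin2, Plin3, Plin4, Plin5, Pnpla2, Hilpda, G0s2, Lipe, Mgll and Abhd5. These 10 genes, of 50686 in each table, were chosen by their function with earlier results of these data known, and Plin4 was named for its high level in the knockout at day 20. The difference in Plin4 between the genotypes at day 20 is therefore given as a description with no test, and the tests are on the other 9 genes at that day and on all 10 elsewhere. The other 9 genes were thus not picked without sight of these data, and their p-values at day 20 do not allow for that. RNA was sequenced from C57BL/6 mice, from a piece of tissue labelled back left brain that was flash frozen after excision. The knockout animals carried Pank1-/- together with Syn-Pank2-/- (dKO) and were compared with wild type (WT) animals of both sexes at day 10 and day 20, which made 8 groups of 3 libraries. The labels do not say what Syn stands for, which cells lost Pank2, or whether each library is 1 animal, so the p-values speak only to variation among these libraries, which may be in part technical.

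Lipid droplets are stores of triglyceride and sterol esters under a single layer of phospholipid, and perilipins (the Plin genes) coat that layer and control which enzymes reach the fat. Triglyceride is taken apart in steps: adipose triglyceride lipase (Pnpla2) removes the first fatty acid, hormone-sensitive lipase (Lipe) the next, and monoacylglycerol lipase (Mgll) the last. Abhd5 activates Pnpla2, whereas G0s2 and Hilpda inhibit it. In brain, droplets are found mostly in glia and ependymal cells, and Mgll also breaks down the endocannabinoid 2-arachidonoylglycerol.

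The libraries were selected by their gene counts: 23 of 24 had at least 1 M (M for mega), from 9.19 to 44.7 M, and 1 count then stood for 0.0224 to 0.109 CPM (counts per M). Libraries of dKO at day 10 held 10.8 to 20.0 M. Within a group the libraries are numbered here in the order they are listed. The excluded library, dKO male day 10 replicate 3, had 45964, among them 6 of Mgll, 2 of Abhd5 and 0 of the other 8 genes, which leaves 5 dKO libraries at day 10. Another library, dKO male day 10 replicate 2, stood apart in tissue markers. It had Ttr, a choroid plexus transcript, at 1.90 CPM against 232 to 542 CPM in WT of that day, and the Purkinje cell gene Pcp2 at 12.6 CPM against 42.5 to 103 CPM. The hindbrain gene Hoxa5 was at 0 in it, but WT of that day ran from 0.090 to 16.7 CPM. Neuronal Snap25 was at 395 CPM or more in each of the 23 libraries. Of the targeted genes, Pank1 was at 36.1% of WT at day 10 and 33.1% at day 20, and Pank2 at 93.8% (adjusted p = 0.321) and 74.2% (adjusted p = 1.06e-06). All 10 genes passed the filter on low counts, and would have done so from the WT libraries alone.

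Plin4 (ENSMUSG00000002831, chr17:56100591-56109803) and Plin5 (ENSMUSG00000011305, chr17:56111601-56117596) are neighbours on the minus strand of chromosome 17, 1797 bases apart. Pnpla2 (ENSMUSG00000025509) lies on chr7:141455198-141460743 and Abhd5 (ENSMUSG00000032540) on chr9:122351608-122381524, both on the plus strand (GRCm38, GENCODE M21). The bases just before these 4 genes are shown because Plin4 and Pnpla2 were far higher and Abhd5 lower in all dKO libraries at day 20, and Plin5 was higher in most. They are RefSeq promoter windows on GRCm38.p6, without the bases that fall inside the GENCODE gene. Each is written 5′ to 3′ on the strand of its gene, and capitals mark the matches named after them.
Plin4, chr17:56109804-56110032, minus strand: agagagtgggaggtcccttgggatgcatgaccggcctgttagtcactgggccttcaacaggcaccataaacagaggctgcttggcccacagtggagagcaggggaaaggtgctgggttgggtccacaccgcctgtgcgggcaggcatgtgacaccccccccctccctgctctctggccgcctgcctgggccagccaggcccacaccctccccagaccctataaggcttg
Plin5, chr17:56117597-56117798, minus strand: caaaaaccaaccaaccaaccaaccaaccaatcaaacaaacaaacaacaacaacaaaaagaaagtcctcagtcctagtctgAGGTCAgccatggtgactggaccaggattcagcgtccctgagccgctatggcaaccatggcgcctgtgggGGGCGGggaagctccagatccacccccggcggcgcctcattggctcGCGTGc
Pnpla2, chr7:141454938-141455187, plus strand: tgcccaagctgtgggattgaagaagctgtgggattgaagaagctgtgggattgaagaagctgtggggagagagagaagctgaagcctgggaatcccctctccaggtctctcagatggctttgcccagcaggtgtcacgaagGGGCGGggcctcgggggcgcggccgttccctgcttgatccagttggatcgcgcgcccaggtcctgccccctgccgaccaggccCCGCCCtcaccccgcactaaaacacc
Abhd5, chr9:122351366-122351607, plus strand: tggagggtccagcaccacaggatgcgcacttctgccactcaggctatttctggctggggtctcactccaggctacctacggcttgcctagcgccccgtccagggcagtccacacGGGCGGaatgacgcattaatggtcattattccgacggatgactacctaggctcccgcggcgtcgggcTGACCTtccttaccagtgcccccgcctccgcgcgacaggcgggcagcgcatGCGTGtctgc
The whole windows of 250 bases before the start were searched on both strands for short motifs, beside all 32817 RefSeq windows of that length. The 10 genes have 14 such windows, since Plin5, Hilpda, Lipe and Mgll have 2 each. The Plin4 window held no match to any of them. The nuclear receptor core AGGTCA, to which PPAR and its partner RXR bind as a spaced repeat, was in 14.03% of windows and in 3 of the 14, those of Plin2, Plin5 and Abhd5 (in Plin2 and Abhd5 on the opposite strand, as TGACCT). The glucocorticoid receptor core TGTTCT was in 16.1% of windows and in 1 of the 14, before Mgll. The full receptor sites were rarer, with the glucocorticoid receptor palindrome in 3 windows and the PPAR direct repeat in 11, and none of these belonged to the 10 genes. The hypoxia response cores ACGTG (16.6% of windows) and GCGTG (28.1%) were in 4 and 9 of the 14. The FoxO site GTAAACA was in 3.16% of windows and in 2 of the 14, before Lipe and Mgll, and the GC box GGGCGG in 32.7% and in 9 of the 14, with 2 matches before Pnpla2. A match here is a stretch of letters and not evidence of binding, and the lack of one says only that the letters are not in this window.

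In WT brain at day 20, Mgll had the highest level per length of the 10 genes, at 17.2 ± 0.84 CPM per kb of exon (SD, n = 6). A middle group followed, with Abhd5 at 5.11 ± 0.28, Plin3 at 5.06 ± 0.82, Pnpla2 at 4.79 ± 0.54 and G0s2 at 4.18 ± 0.72 CPM per kb, whose ranges over libraries overlapped from each gene to the next. Plin2 (2.51 ± 0.27), Lipe (2.10 ± 0.24) and Hilpda (1.96 ± 0.29) were lower and again overlapped in turn. Plin4 (0.39 ± 0.06) and Plin5 (0.22 ± 0.09) were the lowest and overlapped each other. In dKO at day 20 the order differed: Plin4 stood at 11.5 ± 5.64 and Pnpla2 at 11.3 ± 2.62 CPM per kb, next to Mgll at 13.9 ± 1.33, and the range of Plin4 overlapped those of both. At day 10 the genotypes had the same top 3 (Mgll, Abhd5, Plin2) and the same bottom 2 (Plin5 above Plin4).

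**Figure D1:**
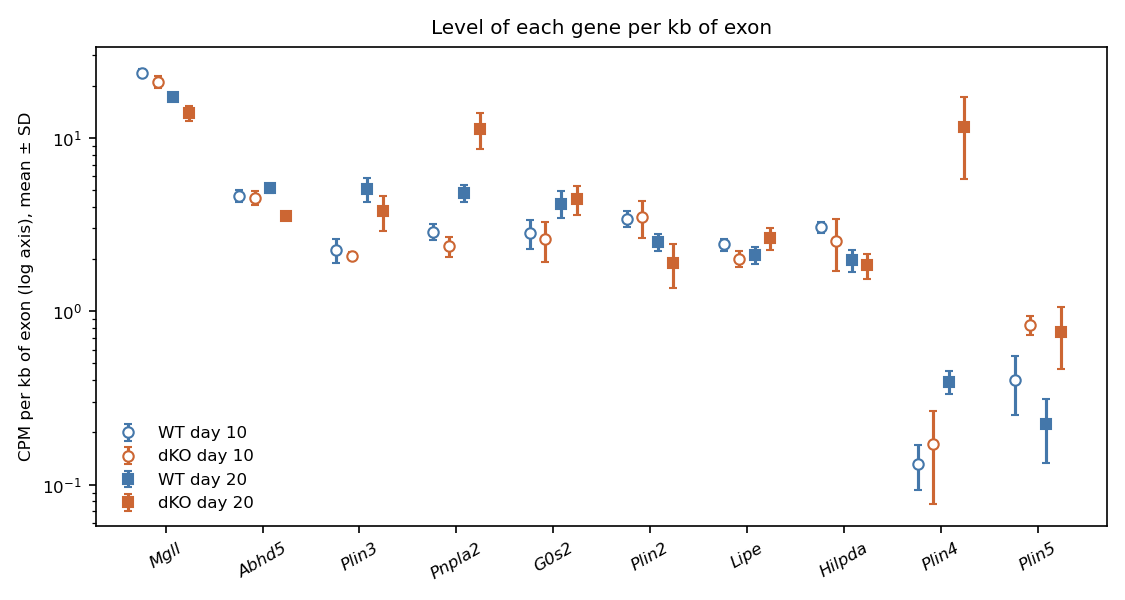
CPM per kb of exon (log axis, mean ± SD) for each gene in WT (n = 6 at both days) and dKO (n = 5 at day 10, n = 6 at day 20); open circles are day 10 and filled squares day 20. Plin4 lies at 0.39 in WT and 11.5 in dKO at day 20, and Mgll has the highest mean in all 4 sets.

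Among the coat proteins at day 20, Plin4 and Plin5 were higher in dKO, and Plin2 and Plin3 were lower. Plin4 encodes a perilipin best known from fat and muscle. Its level in WT at day 20 was 2.33, 1.92 and 2.45 CPM in females and 2.11, 2.81 and 1.93 CPM in males. In dKO it was 90.2, 32.4 and 17.1 CPM in females and 81.4, 88.6 and 87.5 CPM in males. The genotypes did not overlap, and within dKO female replicates 2 and 3 lay well below the other 4 libraries. The fitted difference was 4.83 ± 0.34 on the log2 scale (SE), or 28.5-fold, and between 4.38 and 5.02 when any 1 library was left out. It was 4.40 ± 0.48 in females and 5.27 ± 0.48 in males, again with no test. These SEs and this range describe the libraries at hand and take no account of Plin4 having been chosen for this difference.

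Plin5, a perilipin of tissues with active fat oxidation that ties droplets to mitochondria, was at 0.25 to 0.79 CPM in WT at day 20 with a median of 0.45. In dKO it was at 1.75, 1.01 and 0.66 CPM in females and 1.95, 2.29 and 1.87 CPM in males, so that 5 of 6 dKO libraries lay above all WT libraries. Plin5 rose by 1.80 ± 0.28 on the log2 scale, 3.47-fold (95% interval 2.32 to 5.20; edgeR quasi-likelihood test, Benjamini-Hochberg adjusted p = 2.90e-05). These values rest on 6 to 14 counts per library in WT and 10 to 55 in dKO. The dKO libraries with the lowest Plin5 were again female replicates 2 and 3. The fit for females alone called Plin5 (log2 1.49, adjusted p = 0.0242), but not without dKO female replicate 1 (adjusted p = 0.197), WT female replicate 1 (adjusted p = 0.134) or WT female replicate 3 (adjusted p = 0.0536), nor with counts that ignore strand (log2 0.29, adjusted p = 0.432).

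Plin2, the coat protein found on droplets of most cells, fell. It was at 7.72 to 9.88 CPM in WT (median 8.80) and at 6.14, 6.52 and 10.3 CPM in dKO females and 6.29, 6.55 and 4.39 CPM in dKO males. In dKO 5 of 6 libraries were below all WT libraries, and female replicate 3 was above them. The change was -0.41 ± 0.14 on the log2 scale (adjusted p = 0.0211), and it was no longer called without dKO female replicate 1, dKO female replicate 2, dKO male replicate 3, WT female replicate 3 or WT male replicate 2 (adjusted p from 0.0534 to 0.0667).

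Plin3, a perilipin that moves between the cytosol and young droplets, also fell over both sexes, by 0.43 ± 0.10 on the log2 scale (adjusted p = 0.00211). In females the ranges of the genotypes overlapped, with 18.3, 16.2 and 16.8 CPM in WT and 17.6, 15.4 and 16.7 CPM in dKO (log2 -0.05 ± 0.15, adjusted p = 0.885). In males WT was at 19.1, 24.99 and 19.4 CPM and dKO at 8.78, 14.8 and 12.2 CPM, with no overlap (log2 -0.82 ± 0.15, adjusted p = 1.70e-04). The difference between the sexes was -0.78 ± 0.21 on the log2 scale and was not called in the fit over all groups (adjusted p = 0.0999). It was called with no filter on low counts (adjusted p = 0.0170), with DESeq2 (adjusted p = 0.0365), when only the groups of day 20 were fitted (adjusted p = 0.0356) and without dKO male replicate 2 (adjusted p = 0.0369). In the fit over all groups no gene of 21657 was called for this interaction at day 20 (0% of genes; 3220 had an unadjusted p under 0.05). In those 4 other fits Plin3 was 1 of 177, 363, 1182 and 150 genes called, in the same order.

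Of the lipases, Pnpla2 rose most. It was at 12.6, 13.98 and 16.9 CPM in WT females and 12.9, 15.2 and 15.2 CPM in WT males at day 20. In dKO it was at 34.6, 26.5 and 23.0 CPM in females and 42.5, 35.8 and 41.9 CPM in males. No dKO library overlapped with WT, and female replicates 2 and 3 were the lowest of the dKO libraries here too. Pnpla2 was higher by 1.22 ± 0.10 on the log2 scale, 2.33-fold (95% interval 2.02 to 2.68; adjusted p = 5.27e-09). It was called in females (log2 0.96, adjusted p = 1.21e-04) and in males (log2 1.48, adjusted p = 7.60e-08), and the difference between the sexes was not called (log2 0.52 ± 0.19, adjusted p = 0.213).

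Lipe (ENSMUSG00000003123, chr7:25379527-25398710, minus strand) rose by 0.33 ± 0.09 on the log2 scale (adjusted p = 0.00568), from 10.7 to 14.8 CPM in WT (median 12.2) to 12.8 to 18.4 CPM in dKO (median 15.4). This rise rests on stranded counts, since with unstranded ones the difference was -0.002 (adjusted p = 0.991). Unstranded counts at Lipe were below the sum of both strands. At day 20 they were 2237 in WT (1885 on the gene strand, 1666 on the opposite) and 1939 in dKO (2059 and 1103). In dKO they were thus below the gene strand alone, and the reason was not tested. With stranded counts, 4 of the 6 dKO libraries lay above all WT libraries. Mgll fell by 0.32 ± 0.05 on the log2 scale (adjusted p = 6.74e-05). It was at 81.6 to 93.5 CPM in WT (median 87.5) and at 62.8 to 82.9 CPM in dKO (median 68.4), with 5 of 6 dKO libraries below all of WT.

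Abhd5, the activator of Pnpla2, fell in both sexes. In WT at day 20 it was at 29.2, 28.8 and 29.5 CPM in females and 31.4, 33.3 and 30.4 CPM in males, against 21.0, 21.7 and 22.5 CPM in dKO females and 20.5, 21.2 and 20.2 CPM in dKO males. The groups did not overlap, and the dKO libraries varied little (21.2 ± 0.83 CPM, n = 6). The change was -0.52 ± 0.06 on the log2 scale (adjusted p = 2.16e-07), with -0.42 in females (adjusted p = 0.00130) and -0.62 in males (adjusted p = 3.22e-06).

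Neither inhibitor was called. G0s2 was at 3.05 to 4.60 CPM in WT (median 3.47) and 2.90 to 4.78 CPM in dKO (median 3.83), a difference of 0.10 ± 0.15 on the log2 scale (adjusted p = 0.641). Hilpda, which hypoxia induces, was at 1.72 to 2.55 CPM in WT (median 2.15) and 1.52 to 2.504 CPM in dKO (median 2.10), with a log2 difference of -0.11 ± 0.18 (adjusted p = 0.666). The 95% intervals of their fold changes, 0.864 to 1.33 for G0s2 and 0.721 to 1.19 for Hilpda, leave room for moderate changes in either direction.

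In all, 7 of the 9 genes tested were called at day 20, 3 higher (Plin5, Pnpla2 and, with stranded counts only, Lipe) and 4 lower (Plin2, Plin3, Mgll, Abhd5), while 38.0% of all genes tested were called. The median log2 difference of the 10 genes was -0.004, beside -2.87e-04 over all genes. When a change above 1.2-fold was required, Plin5, Pnpla2 and Abhd5 remained called, and Plin2, Plin3, Lipe and Mgll did not. That setting is 1 of 9 alternatives that leave out no replicate. Over these 9, from 2905 to 9669 of all genes were called, against 8231 in the main fit. In males 7 of 9 were called (34.6% of genes) and in females 4 of 9 (10.4% of genes), namely Plin5 and Pnpla2 higher and Mgll and Abhd5 lower. Mgll in females was not called in 4 of the 6 fits with 1 library left out, and Lipe in males in 4 of 6. The libraries of the 2 genotypes did not overlap for 2 of the 9 genes (Pnpla2, Abhd5), a share near the 20.1% of all genes. In bulk tissue, a change in RNA per cell cannot be told apart from a change in how many cells of a type are present.

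**Figure D2:**
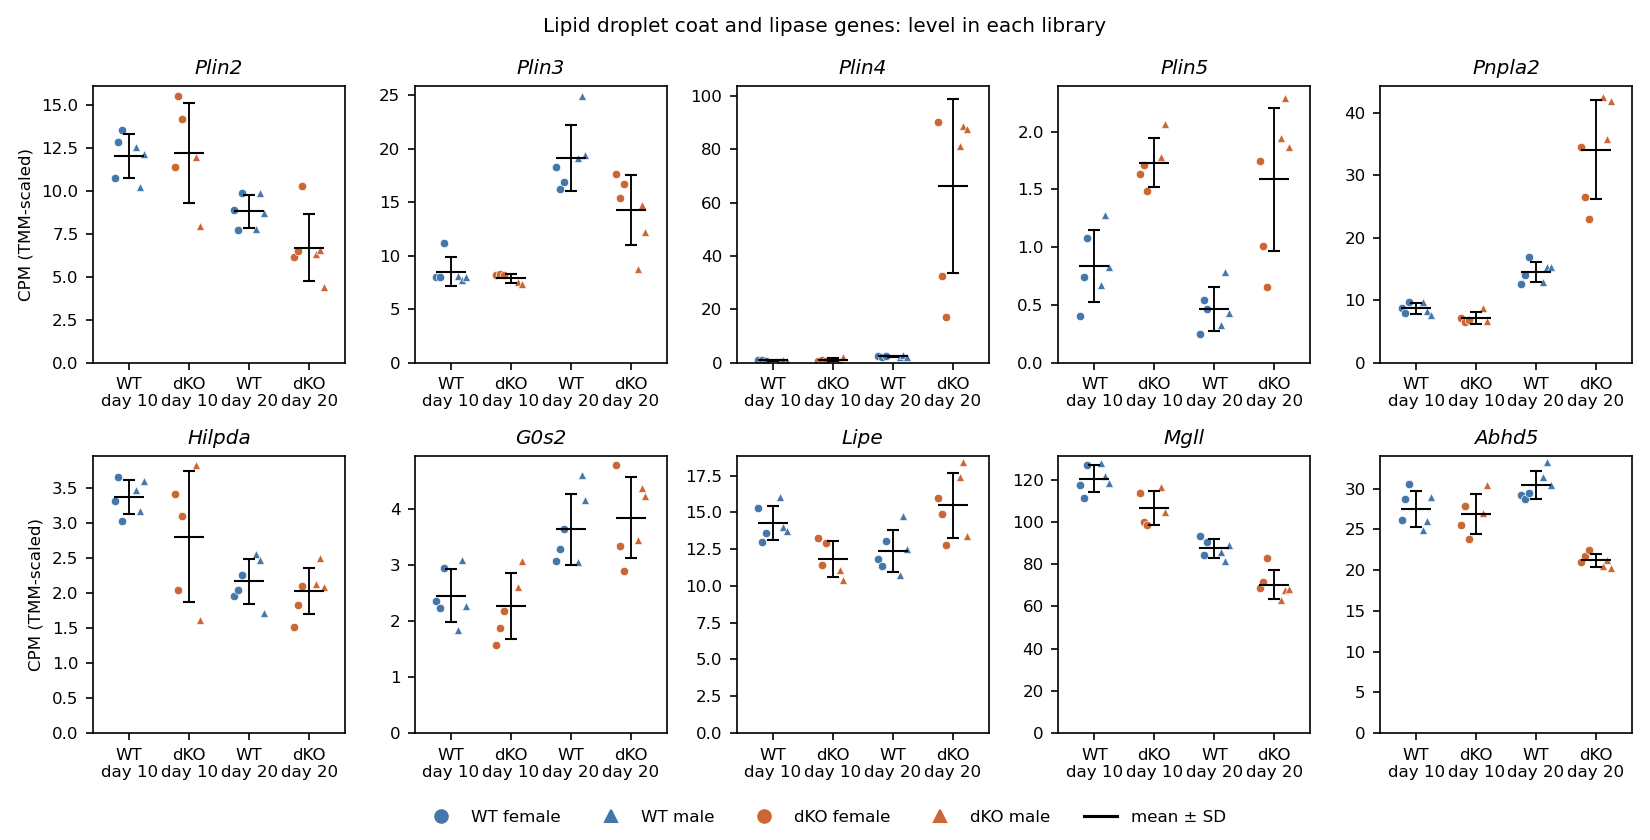
CPM of each gene in each of the 23 libraries (linear axes from 0, 1 panel per gene), with circles for females, triangles for males and bars for mean ± SD per genotype and day. Plin4 at day 20 runs from 17.1 to 90.2 CPM in dKO against 1.92 to 2.81 in WT, and Abhd5 at day 20 shows 2 tight groups that do not overlap.

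At day 10 the genotypes were close in most of the 10 genes. Plin5 was the only one of the 10 genes called, beside 4.99% of all genes. It was at 0.40, 0.74 and 1.08 CPM in WT females and 0.68, 1.28 and 0.82 CPM in WT males, against 1.63, 1.71 and 1.48 CPM in dKO females and 1.78 and 2.06 CPM in dKO males. The groups did not overlap, as was so for 1.99% of all genes, and Plin5 was higher by 1.07 ± 0.27 on the log2 scale (2.09-fold, adjusted p = 0.0334). That call was lost in 6 of the 11 fits with 1 library left out. Among these was the fit without dKO male replicate 2, the library that stood apart in tissue markers, which leaves 1 dKO male library. There the log2 change was 0.996 and the adjusted p 0.272. The other such libraries were dKO female replicates 2 and 3, WT female replicates 1 and 2 and WT male replicate 1, with adjusted p from 0.0550 to 0.111. It was also lost when only the groups of day 10 were fitted (adjusted p = 0.225), and with unstranded counts (log2 0.31, adjusted p = 0.239).

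Lipe (log2 -0.30 ± 0.10, adjusted p = 0.0707), Mgll (log2 -0.17 ± 0.06, adjusted p = 0.0752) and Pnpla2 (log2 -0.28 ± 0.12, adjusted p = 0.143) were lower in dKO at day 10 without being called. DESeq2 called Lipe (adjusted p = 0.0394) and Mgll (adjusted p = 0.0383) beside Plin5. Without dKO male replicate 1, the only dKO male library left was replicate 2, which stood apart in tissue markers, and it is assumed to vary as the other groups do. In that fit 4516 of 22603 genes were called, against 1081 of 21657 with all libraries, among them Pnpla2, Hilpda, Lipe and Mgll as lower (adjusted p from 0.0174 to 0.0488). Plin4 was at 0.54 to 1.11 CPM in WT (median 0.71) and at 0.65, 0.94 and 0.70 CPM in dKO females and 0.72 and 1.95 CPM in dKO males. The highest value was that of dKO male replicate 2, which also had the lowest Plin2 (7.92 CPM) and Hilpda (1.62 CPM) of that day. The log2 difference of Plin4 was 0.47 ± 0.64 (adjusted p = 0.711) and 0.02 without that library. In females alone 0 of 10 genes were called (0.319% of all genes), and in males 0 of 10 (0.0139% of all genes). In females 3 of 10 had an unadjusted p under 0.05, beside 3864 of all 21657 genes. In males 2 of 10 did, beside 3978 of all 21657 genes. In the fit that left replicate 2 as the lone dKO male, Hilpda was called in males (log2 -1.07, adjusted p = 0.0185), as were 4350 of 22603 genes. The genotype by sex interaction at day 10 was called for 0 of 10 (0% of genes). For it 1 gene of the 10, Abhd5, had an unadjusted p under 0.05, beside 2482 of all 21657 genes.

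**Figure D3:**
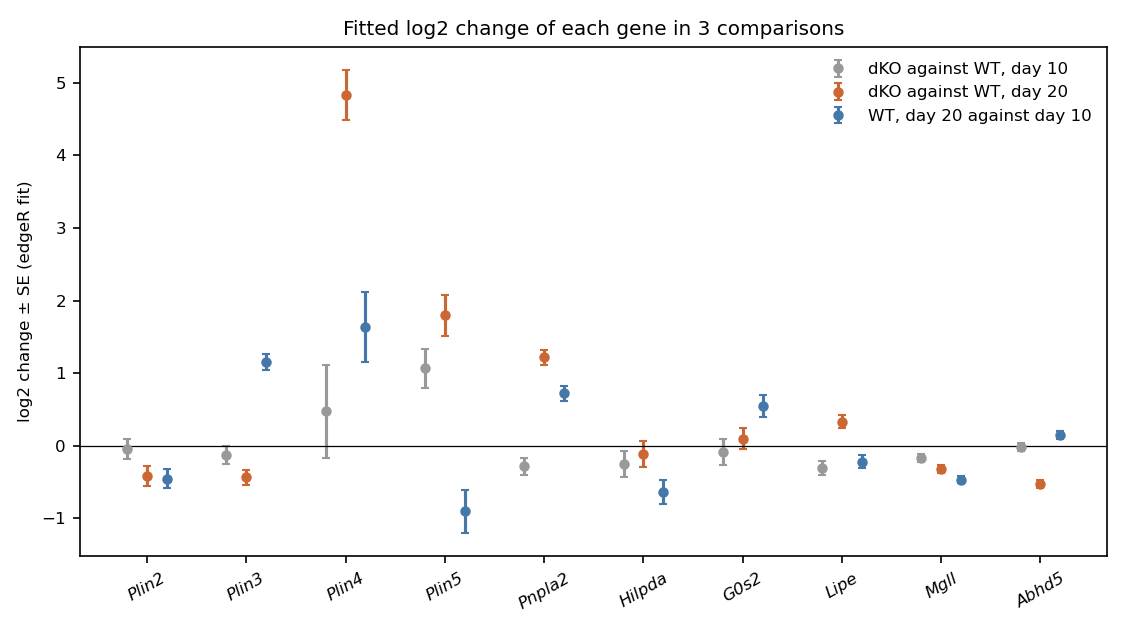
Fitted log2 change ± SE of each gene in 3 comparisons: dKO against WT at day 10 (grey), dKO against WT at day 20 (orange) and WT day 20 against WT day 10 (blue). Plin4 at day 20 stands at 4.83, Pnpla2 is below 0 at day 10 (-0.28) and at 1.22 at day 20, and the orange and blue points share the WT libraries of day 20.

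The difference between genotypes was compared between the days with the genotype by day interaction, in which 28.3% of all genes were called. Of the 9 genes tested, Pnpla2 (log2 1.498 ± 0.15, adjusted p = 8.14e-07) and Lipe (log2 0.63 ± 0.13, adjusted p = 0.00135) moved up in dKO relative to WT from day 10 to day 20. Abhd5 moved down (log2 -0.50 ± 0.08, adjusted p = 1.05e-04). The genotype difference of Plin5 did not pass this test (log2 0.73 ± 0.39, adjusted p = 0.174), nor did those of Mgll (log2 -0.15, adjusted p = 0.159), Plin2 (log2 -0.37, adjusted p = 0.168) and Plin3 (log2 -0.31, adjusted p = 0.157). Plin2 was called without dKO female day 20 replicate 3 (adjusted p = 0.0469), and Plin3 without dKO male day 20 replicate 2 (adjusted p = 0.0485) or WT female day 10 replicate 3 (adjusted p = 0.0450). For Plin4, given as a description, the interaction was 4.36 ± 0.74 on the log2 scale.

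All 10 genes were called in WT between the days, beside 50.4% of all genes tested, with 5 higher and 5 lower at day 20. Plin3 rose by 1.16 ± 0.11 on the log2 scale (adjusted p = 6.57e-09), from 7.73 to 11.2 CPM at day 10 (median 8.02) to 16.2 to 24.99 CPM at day 20 (median 18.7). Pnpla2 rose by 0.72 ± 0.10 (adjusted p = 3.48e-06), from 7.53 to 9.77 CPM (median 8.497) to 12.6 to 16.9 CPM (median 14.6). Plin4 rose by 1.63 ± 0.49 (adjusted p = 0.0103), from 0.54 to 1.11 CPM (median 0.71) to 1.92 to 2.81 CPM (median 2.22). For each of these 3 genes the days did not overlap. G0s2 (log2 0.55 ± 0.16, adjusted p = 0.00502) and Abhd5 (log2 0.15 ± 0.05, adjusted p = 0.0294) rose less.

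Mgll fell by 0.46 ± 0.05 on the log2 scale (adjusted p = 1.52e-07), from 111 to 128 CPM (median 120.2) to 81.6 to 93.5 CPM. Hilpda fell by 0.63 ± 0.17 (adjusted p = 0.00288) and Plin2 by 0.45 ± 0.13 (adjusted p = 0.00661), and for these 3 genes too the days did not overlap. Over all genes 31.9% did not overlap between the days. Plin5 (log2 -0.90 ± 0.30, adjusted p = 0.0142) and Lipe (log2 -0.22 ± 0.09, adjusted p = 0.0479) were called lower with overlapping ranges. Leaving out 1 library ended the call of Lipe in 8 of 12 fits, of Abhd5 in 5 and of Plin5 in 3, and limma-voom did not call Plin4 (adjusted p = 0.0663). The WT libraries of day 20 serve both this comparison and that of the genotypes, so the values are only set side by side. Pnpla2 was 0.72 higher with age in WT and 1.22 higher in dKO than WT at day 20, Mgll 0.46 and 0.32 lower, Plin3 1.16 higher and 0.43 lower, and Abhd5 0.15 higher and 0.52 lower, all on the log2 scale. Between WT males and females 0 of 10 genes were called, beside 0.0693% of all genes. An unadjusted p under 0.05 was found there for 0 of 10, beside 544 of all 21657 genes.

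Strand mattered at 3 of the loci. The counts used are those on the strand of the gene, and for Plin4 most reads of the locus outside dKO at day 20 were on the opposite strand. Opposite-strand reads made up 91.6% of both strands in WT and 87.9% in dKO at day 10, 80.4% in WT at day 20 and 12.001% in dKO at day 20. Their level was similar in all 4 sets, at 8.20 ± 0.54 and 7.76 ± 1.23 counts per M gene counts at day 10 (WT, dKO) and 8.70 ± 0.74 and 9.01 ± 2.31 at day 20. Hdgfl2, a plus-strand gene at 56.2 ± 2.68 CPM in WT at day 20, ends 17 bases inside Plin4, and its part in these reads was not tested. It rose in dKO at day 20 by 0.39 ± 0.05 on the log2 scale (adjusted p = 2.69e-06). With unstranded counts the Plin4 difference at day 20 was 2.71 instead of 4.83 on the log2 scale, and its rise with age in WT was not called (log2 0.40, adjusted p = 0.206).

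At Plin5 no annotated gene overlaps, yet opposite-strand reads were 69.3% of both strands in WT and 48.5% in dKO at day 10, and 84.5% and 61.3% at day 20. With unstranded counts Plin5 remained called at day 20, at a log2 change of 0.50 over both sexes (adjusted p = 0.00795) but not in females alone, and its fall with age in WT did not hold (log2 0.06, adjusted p = 0.766). Lipe lies within the antisense gene 4732471J01Rik, and 34.9 to 46.9% of reads there were on the opposite strand. With unstranded counts its genotype difference at day 20 was -0.002 on the log2 scale (adjusted p = 0.991), its age difference in WT was 0.05 (adjusted p = 0.664) and its genotype by day interaction was not called (log2 0.28, adjusted p = 0.0912). For the other 7 genes the opposite strand held at most 3.85% of the reads summed over a genotype and day, and in single libraries at most 8.92% (Plin3 in dKO male day 20 replicate 1, with 19 reads on that strand and 194 on its own).

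**Figure D4:**
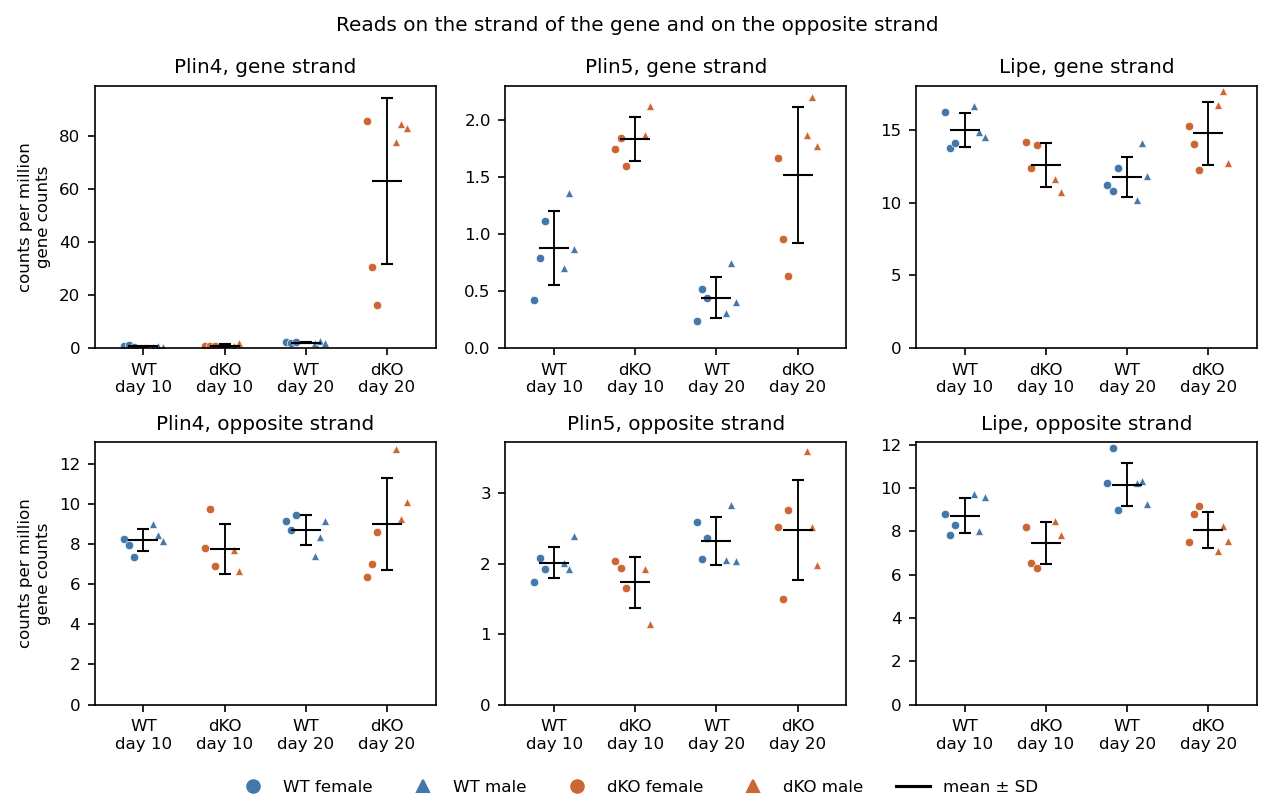
Counts per M gene counts on the strand of the gene (top) and on the opposite strand (bottom) for Plin4, Plin5 and Lipe, 1 point per library with mean ± SD. Opposite-strand reads at Plin4 stay between 6.34 and 12.8 in all 4 sets while gene-strand reads differ between the genotypes at day 20.

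The 2 dKO libraries of day 20 with low Plin4, Plin5 and Pnpla2 (female replicates 2 and 3) were not the shallowest as a pair, at 27.3 and 15.9 M gene counts in a group of 15.9 to 27.3 M. Pdk4, which blocks pyruvate oxidation in fasting and is a known PPAR and glucocorticoid target, was also lowest in them, at 20.5 and 17.4 CPM against 32.0 to 57.4 CPM in the other 4 dKO libraries and 7.60 to 13.6 CPM in WT. Angptl4, a secreted inhibitor of lipoprotein lipase, was at 4.04 and 4.01 CPM in them, 6.58 to 10.9 CPM in the other 4 and 1.66 to 2.95 CPM in WT. The glucocorticoid receptor targets Fkbp5 (72.1 and 73.3 CPM, others 101 to 114 CPM) and Sgk1 (290 and 292 CPM, others 315 to 369 CPM) were lowest in them too. So were BC018473, Tfr2, Cftr, Csrnp1, Ovgp1 and Ptgds, which are named below for their likeness to droplet genes. Matn1 and Lcn2 did not follow this order. Matn1, a cartilage matrix gene, was highest of the dKO libraries of day 20 in female replicate 2, at 34.0 CPM. Lcn2, a secreted iron-siderophore carrier, was highest in female replicate 3, at 6.12 CPM. The genes set beside the members here were chosen after their values were seen, and what sets the libraries apart was not tested.

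The genes whose log2 levels over the 8 groups lay nearest to each member were found by the root mean square difference of centred group means. For Plin4 they were Matn1 (0.78), Lcn2 (0.92) and BC018473 (0.93), which is a loose likeness. Their means were below 1 CPM in WT at both days and in dKO at day 10. They thus entered the search through dKO at day 20, the group for which Plin4 was named, and the likeness is a description only. Matn1 was at 0.36 ± 0.20 CPM in WT and 26.4 ± 5.71 CPM in dKO at day 20. For Plin5 they were Angptl4 (0.29), Tfr2 (0.30) and Cftr (0.31), and for Pnpla2 Csrnp1 (0.10), Ovgp1 (0.11) and Ptgds (0.13). Plin3 was nearest to Prr18 (0.10), Prelp (0.12) and Fxyd1 (0.12), Plin2 to Gm37769 (0.06), Cald1 (0.06) and Samd1 (0.07), and G0s2 to Gm14443 (0.07), Zfp365 (0.08) and Cacna1i (0.08). Hilpda, Lipe, Mgll and Abhd5 spanned less than 1 log2 unit over the groups and were not matched.

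Other genes of the pathway at day 20 are given by list, beside all 21657 genes, of which 18.8% were higher, 19.2% lower and 38.0% called in all, at a median log2 difference of -2.87e-04. Of 15 triglyceride and sterol ester synthesis genes tested, 5 were higher in dKO, 3 lower and 7 not called (median log2 0.08). Lpin1, a phosphatidate phosphatase, rose by 0.38 (78.6 ± 10.7 against 60.3 ± 4.52 CPM, adjusted p = 2.68e-05), and the acyltransferases Agpat1 and Agpat4 and the sterol esterifying enzyme Soat1 fell by 0.34, 0.40 and 0.30 on the log2 scale. Of 15 genes of droplet formation and other droplet proteins, 1 was higher and 6 lower (median -0.11). Among the lower were Spg20 (log2 -0.45, adjusted p = 4.90e-06), Ldah (log2 -0.36, adjusted p = 3.90e-05), Pcyt1a (log2 -0.17, adjusted p = 0.00342), which makes phosphatidylcholine for the droplet surface, and Fitm2 (log2 -0.26, adjusted p = 0.00486), which helps droplets bud. Plin1 and Cidec, coat proteins of fat cells, were too low to test.

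Of 11 other neutral lipid lipases and hydrolases, 2 were higher and 3 lower (median -0.02), beside 18.8% and 19.2% of all genes. Lipa, the lysosomal acid lipase, fell from 26.9 ± 3.68 CPM in WT to 18.4 ± 2.18 CPM in dKO (log2 -0.55, adjusted p = 3.84e-05). Ddhd2, the main triglyceride hydrolase of brain, rose by 0.33 (adjusted p = 9.40e-05), while Ddhd1 fell by 0.23 (adjusted p = 1.54e-04) and the monoacylglycerol hydrolase Abhd6 by 0.33 (adjusted p = 0.00243), all on the log2 scale. Of 12 genes of fatty acid uptake and transport, 4 were higher and 7 lower (median -0.22). Slc27a1, a fatty acid transporter, rose by 0.49 and Mfsd2a, the carrier of docosahexaenoic acid at the blood-brain barrier, by 0.64. Fabp7, the fatty acid binding protein of glial progenitors, fell by 1.40 (14.8 ± 5.83 against 37.6 ± 7.41 CPM) and Fabp5 by 0.33 on the log2 scale.

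Of 18 PPAR receptors and targets, 8 were higher and 3 lower at day 20 (median 0.07), where 18.8% of all genes were higher and 19.2% lower. Pdk4 rose by 1.89 (adjusted p = 1.95e-05) and Angptl4 by 1.78 (adjusted p = 4.90e-06), whereas the coactivator Ppargc1b fell by 0.54 on the log2 scale (adjusted p = 5.76e-07). Of 20 hypoxia-inducible factors and targets, 3 were higher and 8 lower (median -0.04). Hif3a rose from 14.2 ± 2.80 to 72.5 ± 10.8 CPM, and P4ha1 (log2 -1.06), Ldha (log2 -0.51) and Vegfa (log2 -0.53) fell. Of 18 glucocorticoid receptor targets, 15 were higher and 1 lower (median 1.23), among them Fkbp5 at 95.5 ± 18.2 against 20.2 ± 1.64 CPM and Sgk1 at 325 ± 33.1 against 119.99 ± 20.6 CPM. Pdk4 and Angptl4 stand on more than 1 of these lists. At day 10 these 7 lists held 0 to 2 higher and 0 to 1 lower calls each, beside 3.23% and 1.76% of all genes, and the glucocorticoid list 0 of 18.

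**Figure D5:**
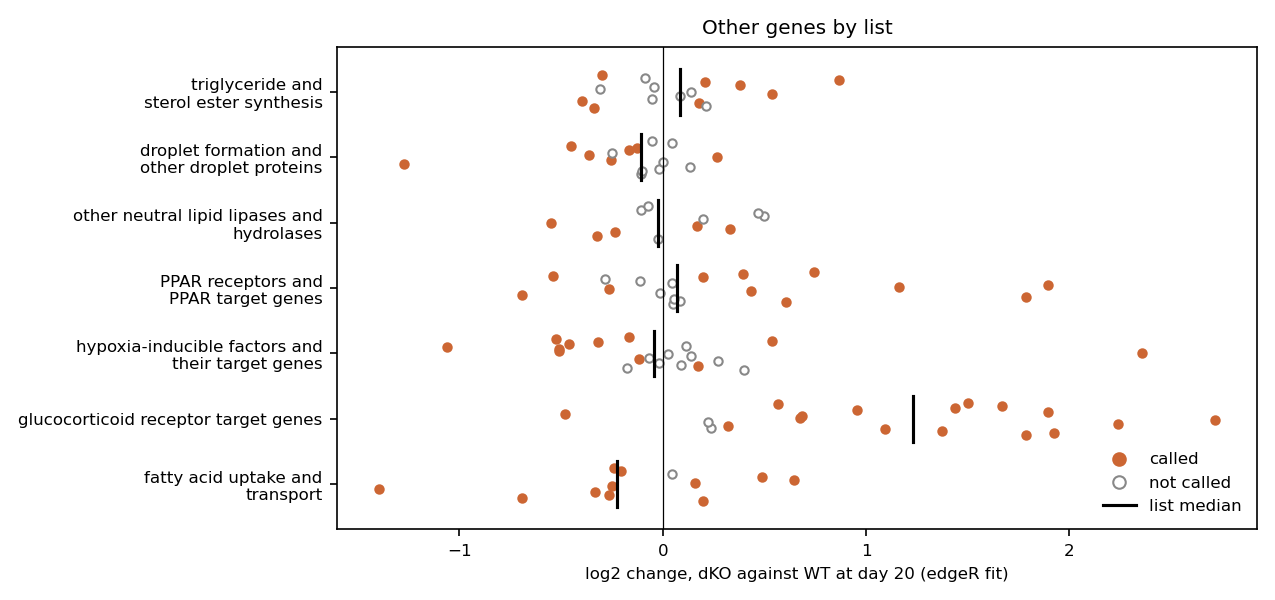
Log2 difference of dKO against WT at day 20 for the genes of each list (orange called, open not called, black bar the list's median). The glucocorticoid list has its median at 1.23, and the medians of the other 6 lists lie between -0.22 and 0.08.

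Markers of cells that hold many droplets elsewhere were low. The 8 adipocyte markers summed to 0.07 to 0.52 CPM in WT and 0.12 to 0.95 CPM in dKO at day 20, and none of the 8 reached the level for testing. Adipoq had a median of 0 in WT and 0.02 CPM in dKO at day 20, and Plin1 of 0.04 and 0.06 CPM. Of 6 skeletal muscle markers tested, 0 were called at day 20, and all 8 summed to 2.41 to 22.6 CPM in WT and 3.07 to 5.34 CPM in dKO. Markers of other cells moved with the genotype at day 20, where 18.8% of all genes were higher and 19.2% lower: 6 of 8 endothelial markers were lower (sum 218 to 273 CPM in dKO, 302 to 315 in WT), 6 of 8 microglial markers (101 to 152 against 169 to 203 CPM) and 7 of 7 erythrocyte markers (75.9 to 131 against 320 to 677 CPM). Astrocyte markers were mixed, with 2 higher and 2 lower of 8 (4485 to 5132 against 4948 to 5255 CPM), 4 of 8 oligodendrocyte markers were lower (11704 to 14923 against 15351 to 20029 CPM), and so were 4 of 8 choroid plexus markers (231 to 529 against 524 to 679 CPM). Ependyma had 1 higher and 4 lower of 8, meningeal fibroblasts 1 higher and 6 lower, pericytes and smooth muscle 1 higher and 4 lower, and neurons 2 lower. No hindbrain or cerebellum marker of 8 was called. At day 10, 4 of 8 oligodendrocyte markers were already lower in dKO (sum 4053 to 6353 CPM against 5976 to 12107 CPM in WT), where 1.76% of all genes were lower. In the same comparison 2 of 8 neuron markers were higher, where 3.23% of all genes were higher, and no marker of the other lists was called. The part of these shifts in the values of the droplet genes was not tested.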

How the data were processed

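Per the labels' protocols, libraries were TruSeq Stranded mRNA. The authors deposited raw counts per gene, and the submitters' processing notes name STAR 2.5.2b, HTSeq and GRCm38.p5; the gene annotation is not given in the sources used here. Entries that name no gene were left out (no-feature 41.7 to 47.5% of reads, ambiguous 0.589 to 1.05%). Gene symbols came from GENCODE M21, with 50462 identifiers matched and 224 not.

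Reverse-strand counts of 23 libraries were fitted with edgeR 4.0.16 in R 4.3.3 (filterByExpr by group, 21657 genes; TMM; 8 group means; robust glmQLFit; two-sided glmQLFTest). P-values were Benjamini-Hochberg adjusted over all 21657 genes, and a gene was called below 0.05. Comparisons over both sexes weight the sexes equally. Levels are TMM-scaled CPM, or per kb of merged exons. Depth limits cover counting error only. The test was first tried on simulated data.

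The 10 genes and all lists were chosen with earlier results of these data known, and the FoxO site and GC box were added after the other motifs had been searched. From each list the text names up to 4 called genes with the smallest p and a mean of at least 1 CPM, beside markers. By library it also names Pdk4, Angptl4, Fkbp5, Sgk1, Matn1, Lcn2 and other genes near the members in level, chosen after their values were seen. A gene that the rule names is not reported here. The bases after the RefSeq start of Pnpla2 were not found in a GENCODE transcript. The alternatives were RLE scaling, a looser and a stricter filter (a mean of at least 1 CPM), unstranded counts, all 24 libraries, DESeq2 1.42.0, limma-voom (limma 3.58.1), fitting only the groups compared, requiring more than 1.2-fold, and leaving out each replicate in turn.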

Additional observations from a re-analysis of the deposited data

Results flagged for a closer look

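In 5 of 40 sets of 1 gene in 1 genotype and day, 1 library lay far from the others by Dixon's criterion; chance gives about 1 in 20. Plin2 was at 10.3 CPM in dKO day 20 female replicate 3, against 4.39 to 6.55 CPM in the other 5. Plin3 was at 11.2 CPM in WT day 10 female replicate 3 (others 7.73 to 8.07 CPM) and at 24.99 CPM in WT day 20 male replicate 2 (others 16.2 to 19.4 CPM). Plin4 was at 1.95 CPM in dKO day 10 male replicate 2 (others 0.65 to 0.94 CPM), the library with Ttr at 1.90 CPM. Pnpla2 was at 8.73 CPM in dKO day 10 male replicate 1 (others 6.49 to 7.07 CPM).

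The genotype difference itself differed between the days for 3 of the 9 genes tested. From day 10 to day 20 it changed by 1.498 on the log2 scale for Pnpla2 (adjusted p = 8.14e-07), by 0.63 for Lipe (adjusted p = 0.00135) and by -0.50 for Abhd5 (adjusted p = 1.05e-04), by edgeR's quasi-likelihood test. The value for Lipe rests on stranded counts and was not called with unstranded ones (0.28, adjusted p = 0.0912).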

How the results depend on the processing

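No paired analysis was possible because the labels give no replicate numbers; those used here only name the libraries. For dKO against WT over both sexes at day 10, 1 of the 10 genes was called; the count was 2 with no filter, 0 with unstranded counts, 3 with DESeq2, 0 with only the groups compared and 0 at the 1.2-fold minimum, and 0 to 5 with 1 replicate left out. At day 20 the 7 calls became 3 at that minimum and numbered 6 to 7 with 1 replicate left out. Calls over all genes moved with the setting too. The 9 alternatives that leave out no replicate called 6 to 2087 of all genes at day 10 (1081 in the main fit). At day 20 they called 2905 to 9669 (8231 in the main fit). With the same 1.2-fold setting the 4 calls in females at day 20 became 1 and the 7 in males 4. With 1 replicate left out these calls numbered 2 to 4 in females and 6 in each fit in males. The 9 alternatives called 494 to 3903 of all genes in females at day 20 (2242 in the main fit). In males they called 3514 to 9033 (7493 in the main fit). In males at day 10 the count of 0 became 0 to 1 with 1 replicate left out. For genotype by sex at day 20, 0 calls became 1 (Plin3) with no filter, 1 with DESeq2, 1 with only the groups compared, and 0 to 1 with 1 replicate left out. Unstranded counts turned the direction of Lipe at day 20 (log2 -0.00178) and, between the days in WT, of Plin5 (0.0612) and Lipe (0.0491). At Plin5 the reads of the opposite strand enter those counts (in WT at day 20, 440 unstranded, with 372 opposite-strand and 68 gene-strand reads). At Lipe the unstranded counts were below the sum of both strands. At Abhd5 and Mgll they were below the gene strand alone, and the reason was not tested. In WT at day 20 they were 3608 against 4742 for Abhd5 and 12420 against 13637 for Mgll. The difference of Plin4 at day 20 was 2.71 over both sexes, 2.27 in females and 3.15 in males with unstranded counts, and 2.77 in the genotype by day interaction. Over all genes, calls at day 10 ran from 15 to 4516 with 1 replicate left out (1081 with all). The 15 came without dKO male replicate 2 and the 4516 without dKO male replicate 1, each of which leaves 1 dKO male library, and the cause was not tested. Of the other values for single genes across all comparisons and alternatives, 1940 kept their direction where called and their side of the threshold, 65 lost a call and 17 gained one. Plin5, with 6 to 55 counts per library, and Plin4 in all sets other than dKO at day 20, with 6 to 85, are the genes whose precision depth limits most.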
